A study of Mus musculus with 12 samples.

Results

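The proteasome is the barrel-shaped protease that degrades proteins tagged with ubiquitin. Its genes were followed here in mouse dendritic cells stimulated with lipopolysaccharide (LPS). The genes were taken by symbol, as every protein-coding gene named Psma, Psmb, Psmc, Psmd, Psme, Psmf or Psmg followed by a number. The RefSeq table of mouse genes held 51 of them, 47 had a probe on the array, and 46 of the 11095 genes tested were kept. Each of these 46 genes passed the scanner's test for Cy5 signal over background on every one of the 12 arrays. The probe of the thymic subunit Psmb11 was not above background throughout any group. Psma8, Psme2, Psme2b and Psmg4 had no probe with a matching accession and were not analysed here. Psmc3ip and Psme3ip1 carry such a symbol but are not subunits, which leaves 44 proteasome genes.

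Bone marrow from mouse femur and tibia was freed of B and T cells with antibodies and magnetic beads and cultured in GM-CSF (10 ng/ml) plus IL-4 (5 ng/ml) for 5 days. These conditions give dendritic cells, the antigen-presenting cells that carry peptides to T cells. The 4 groups were unstimulated cells (0 h) and cells after 1, 6 and 24 h of LPS at 100 ng/ml, each with 3 arrays labelled donor A, B and C. No strain, age or sex is given in the labels, and no sort was named before RNA extraction. Unstimulated cells were collected at 0 h only, so time in culture cannot be told apart from LPS in any comparison with them. Each array compared a Cy5-labelled sample with the same Cy3-labelled pooled mouse reference RNA. Every value below is therefore a log2 ratio of sample to reference, or a difference between such ratios, and the level of one gene is never set against that of another.

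The core of the proteasome is a stack of rings, the outer ones made of alpha subunits (Psma) and the inner ones of beta subunits (Psmb). Psmb5, Psmb6 and Psmb7 carry the chymotrypsin-like, caspase-like and trypsin-like sites of the constitutive core. In the immunoproteasome their places are taken by Psmb8 (LMP7), Psmb9 (LMP2) and Psmb10 (MECL-1), which interferon induces in many cells and which antigen-presenting cells make constitutively. The regulatory particle at the ends of the core has a ring of ATPases (Psmc) that unfold substrates, and non-ATPase subunits (most Psmd genes) that bind and remove ubiquitin. Psme1 and Psme2 form PA28, an alternative cap that interferon also induces. Psmg1, Psmg2 and Psmg3 help to build the core and Psmd5, Psmd9 and Psmd10 the ATPase ring; these proteins leave the finished particle.

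The promoters of the 3 inducible catalytic genes, of Psme1 and of Psmb6, a constitutive gene whose mRNA was higher at 6 and 24 h, are shown because the values below turn on these genes. The sequences are those of RefSeq (GRCm38.p6), 5′ to 3′ on the gene's own strand, from -180 to 20 relative to the annotated start, with no base numbered 0. Capitals mark every match to the motifs searched within the stretch. The coordinates are chr17:34187311-34187510 on the minus strand for Psmb9, chr17:34198015-34198214 on the plus strand for Psmb8, chr8:105938373-105938572 on the minus strand for Psmb10, chr14:55578314-55578513 on the plus strand for Psme1 and chr11:70525177-70525376 on the plus strand for Psmb6.
Psmb9: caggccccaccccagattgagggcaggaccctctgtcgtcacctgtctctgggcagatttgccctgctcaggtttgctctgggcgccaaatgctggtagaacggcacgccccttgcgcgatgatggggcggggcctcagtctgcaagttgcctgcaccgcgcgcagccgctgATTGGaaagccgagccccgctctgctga
Psmb8: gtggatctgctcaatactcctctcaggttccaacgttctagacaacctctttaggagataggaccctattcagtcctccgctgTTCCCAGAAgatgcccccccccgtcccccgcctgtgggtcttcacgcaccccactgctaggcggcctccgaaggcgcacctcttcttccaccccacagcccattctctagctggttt
Psmb10: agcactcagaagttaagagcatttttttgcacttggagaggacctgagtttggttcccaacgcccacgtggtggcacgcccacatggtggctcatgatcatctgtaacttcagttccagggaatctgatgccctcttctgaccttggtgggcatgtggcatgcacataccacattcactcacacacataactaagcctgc
Psme1: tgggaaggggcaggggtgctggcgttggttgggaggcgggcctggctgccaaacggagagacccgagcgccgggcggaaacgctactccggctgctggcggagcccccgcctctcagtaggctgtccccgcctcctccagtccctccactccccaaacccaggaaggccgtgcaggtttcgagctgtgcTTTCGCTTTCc
Psmb6: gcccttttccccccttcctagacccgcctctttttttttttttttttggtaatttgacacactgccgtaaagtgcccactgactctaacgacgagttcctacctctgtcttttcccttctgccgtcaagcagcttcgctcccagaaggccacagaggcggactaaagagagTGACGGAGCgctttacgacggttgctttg

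Motifs were searched on both strands in the RefSeq windows of 300 bases, from 250 bases before to 50 bases after the start, which were found for 39 of the 46 genes. Psmb8 held a gamma-activated site (TTCNNNGAA, which reads the same on both strands) at -97 to -89. Psme1 held an interferon-stimulated response element (GAAA, any 2 bases, then GAAA) at 10 to 19, just after the start. Psmb6 held an antioxidant response element (TGACNNNGC) at -9 to -1, and Psmb5 held another at -47 to -39. Psmb9 held a CCAAT box at -8 to -4, and its window shared 275 of 300 bases with that of Tap1 on the opposite strand, since these neighbours are transcribed away from each other. Psmb10 held no match to any motif searched.

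Across the 39 genes the shares lay near those of all 27025 genes in the table for most motifs. The interferon-stimulated response element was in 4 windows (10.3%, against 3.99% of all genes), those of Psmb3, Psmd4, Psmd9 and Psme1. The gamma-activated site was in 3 (7.69% against 9.55%), the antioxidant response element in 6 (15.4% against 14%) and the CCAAT box in 15 (38.5% against 41.1%). The kappaB site was in 6 (15.4% against 9.55%), namely Psma6, Psma7, Psmd11, Psmd12, Psmd13 and Psme4. These are matches of letters in fixed windows and say nothing of binding.

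Psmb9 had the strongest evidence of any difference between the 4 groups among the 46 genes (moderated F test, adjusted p = 5.4e-06). Its log2 ratios in donors A, B and C were 2.41, 2.22 and 2.52 unstimulated, 2.02, 1.86 and 2.12 at 1 h, 3.46, 3.53 and 3.47 at 6 h, and 3.00, 3.37 and 3.14 at 24 h. The 1 h arrays lay below every unstimulated array, and every 6 h and 24 h array lay above them. Psmb9 was 2.15-fold higher at 6 h than unstimulated (log2 change 1.10, SE 0.13, n = 3 against 3, limma adjusted p = 3.1e-05) and 0.79 higher on the log2 scale at 24 h (SE 0.13, adjusted p = 4.1e-04). Both changes use the same unstimulated arrays. At 1 h the change was -0.38 (SE 0.13), which did not pass the test (adjusted p = 0.091), and from 1 h to 6 h Psmb9 rose 2.79-fold (log2 1.48, SE 0.13, adjusted p = 3.9e-06).

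Psme1, the alpha subunit of PA28, had log2 ratios of 0.91, 0.64 and 0.72 unstimulated, 0.73, 0.88 and 0.68 at 1 h, 1.57, 1.55 and 1.39 at 6 h, and 1.45, 1.81 and 1.27 at 24 h. The unstimulated and 1 h arrays overlapped, and both lay below all arrays of 6 and 24 h. Psme1 was 1.68-fold higher at 6 h (log2 0.75, SE 0.14, adjusted p = 0.0012) and 1.69-fold higher at 24 h (0.76, SE 0.14, adjusted p = 0.0011). At 1 h its change was 0.01, with a 95% confidence interval of -0.30 to 0.32.

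Psmb8, the inducible chymotrypsin-like subunit, had smaller fitted changes. Its log2 ratios were 2.75, 2.58 and 2.76 unstimulated, 2.52, 2.52 and 2.51 at 1 h, 3.08, 3.02 and 2.96 at 6 h, and 2.99, 3.24 and 2.84 at 24 h. Every 6 h and 24 h array lay above every unstimulated one. Psmb8 passed the test narrowly at 6 h (0.32, SE 0.12, adjusted p = 0.045) and at 24 h (0.33, SE 0.12, adjusted p = 0.043). The call at 6 h ended without any 1 of the 3 unstimulated arrays, the 3 arrays of 6 h, the 1 h array of donor A or C or the 24 h array of donor A (adjusted p up to 0.15), and with donor as a block (adjusted p = 0.052). The call at 24 h ended without any 1 of the arrays other than the 1 h array of donor B and the 24 h array of donor C (adjusted p up to 0.18). A second Psmb8 probe was called higher at 6 h (0.41, SE 0.11, adjusted p = 0.0084) and at 24 h (0.33, SE 0.11, adjusted p = 0.03). From 1 h to 6 h the rise of Psmb8 was 0.50 (SE 0.12, adjusted p = 0.007), and no array left out ended that call.

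Psmb10, the inducible trypsin-like subunit, had log2 ratios of 1.50, 1.59 and 1.35 unstimulated, 1.27, 1.65 and 1.42 at 1 h, 1.87, 1.89 and 1.66 at 6 h, and 1.20, 1.52 and 1.07 at 24 h. The 6 h arrays lay above all others, and the 24 h arrays overlapped the unstimulated ones. The change at 6 h was 0.33 (SE 0.15, adjusted p = 0.096, and 0.039 with donor as a block), and at 24 h it was -0.22 (SE 0.15, 95% confidence interval -0.53 to 0.10). From 6 h to 24 h Psmb10 fell 1.46-fold (log2 change -0.54, SE 0.15, adjusted p = 0.022). That call ended without the 6 h array of donor A or B or the 24 h array of donor A or C (adjusted p up to 0.087).

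**Figure D1:**
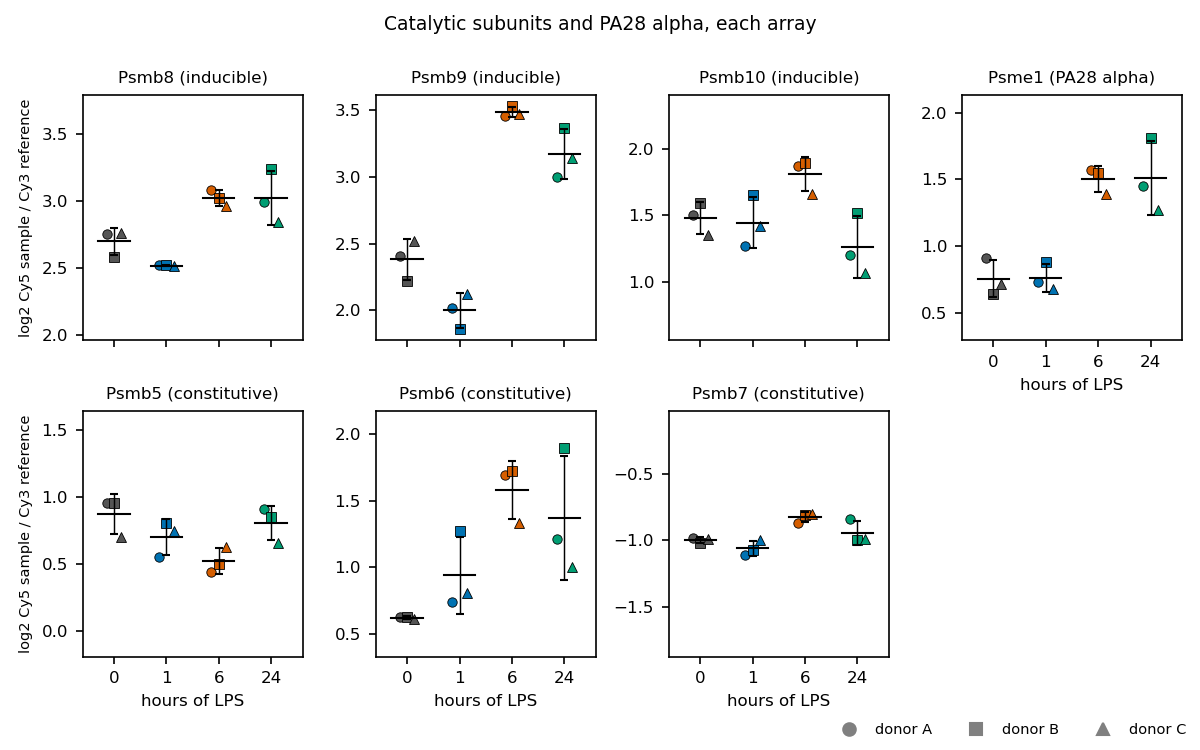
Log2 ratio of sample to reference (vertical axis, the same span of units in every panel) against hours of LPS for the catalytic subunits and Psme1, with 1 point per array, shape for donor, and bars for the mean and SD of 3 arrays. Psmb9 and Psme1 sit higher at 6 and 24 h than before stimulation on every array. At 24 h Psmb10 is within the unstimulated range on 1 of the 3 arrays and below it on the others.

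Among the constitutive catalytic genes, Psmb6 was called higher at 6 and 24 h, Psmb5 was called lower at 6 h and Psmb7 was not called. Psmb6, the caspase-like subunit that Psmb9 replaces, had log2 ratios of 0.63, 0.63 and 0.61 unstimulated, 0.74, 1.27 and 0.81 at 1 h, 1.69, 1.72 and 1.33 at 6 h, and 1.21, 1.89 and 1.00 at 24 h. Every stimulated array lay above every unstimulated one, and the spread among stimulated arrays was wider. Psmb6 was 1.94-fold higher at 6 h (log2 0.95, SE 0.21, adjusted p = 0.0032) and 1.67-fold higher at 24 h (0.74, SE 0.21, adjusted p = 0.014). Without the 24 h array of donor B the 24 h change was 0.48 and the call was lost (adjusted p = 0.054).

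Psmb5, the chymotrypsin-like subunit that Psmb8 replaces, had log2 ratios of 0.96, 0.96 and 0.70 unstimulated, 0.55, 0.81 and 0.75 at 1 h, 0.44, 0.50 and 0.63 at 6 h, and 0.91, 0.85 and 0.66 at 24 h. It was lowest at 6 h, where no array reached the unstimulated range, and overlapped that range again at 24 h. Psmb5 fell by 0.35 at 6 h (SE 0.12, adjusted p = 0.039). This call ended without the unstimulated or the 6 h array of donor A or B (adjusted p up to 0.13), and the F test over the 4 groups did not call Psmb5 (adjusted p = 0.11). At 24 h the change was -0.07 (95% confidence interval -0.33 to 0.20). Psmb7, the trypsin-like subunit, stayed between -1.11 and -0.80 on all 12 arrays, with changes of 0.17 at 6 h (adjusted p = 0.19) and 0.05 at 24 h (adjusted p = 0.7).

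Since each inducible subunit takes the place of a constitutive one, the difference between their log2 ratios was followed on each array. Only its change between groups can be read, because each gene has its own level in the reference. For Psmb8 minus Psmb5 it was 1.80, 1.62 and 2.06 unstimulated, 1.97, 1.71 and 1.76 at 1 h, 2.64, 2.52 and 2.33 at 6 h, and 2.08, 2.40 and 2.18 at 24 h. Every 6 h and 24 h array lay above every unstimulated one. The difference was 0.67 larger at 6 h (SE 0.16) and 0.40 larger at 24 h (SE 0.16). Both gave an exact permutation p of 0.1, the smallest that 3 against 3 arrays allow, and the exact permutation test over the 4 groups gave p = 0.0044 (two-sided, 0.013 adjusted over 3 pairs). Values taken within slides, described below, put the 6 h shift at 0.97.

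For Psmb9 minus Psmb6 the per-array difference was 1.78, 1.59 and 1.92 unstimulated, 1.28, 0.60 and 1.32 at 1 h, 1.77, 1.81 and 2.14 at 6 h, and 1.79, 1.48 and 2.14 at 24 h. It was lower at 1 h, with a change of -0.69 (SE 0.25, exact permutation p = 0.1), and overlapped the unstimulated range at 6 h (change 0.15, SE 0.15) and 24 h (0.05, SE 0.21). The exact permutation test over the 4 groups gave p = 0.018, or 0.027 adjusted over the 3 pairs. The adjusted p was no longer under 0.05 without the unstimulated array of donor A (0.053), the 1 h array of donor B (0.12), the 6 h array of donor C (0.054) or the 24 h array of donor A (0.054).

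For Psmb10 minus Psmb7 the difference ran from 2.34 to 2.61 unstimulated, from 2.38 to 2.72 at 1 h, from 2.47 to 2.73 at 6 h and from 2.04 to 2.52 at 24 h, so all groups overlapped. The exact permutation test over the 4 groups gave p = 0.14, and 0.021 adjusted without the 24 h array of donor B. In these values the inducible member of the chymotrypsin-like pair gained on the constitutive one at 6 h, while both members of the caspase-like pair were higher. The pairs were not tested against each other.

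**Figure D2:**
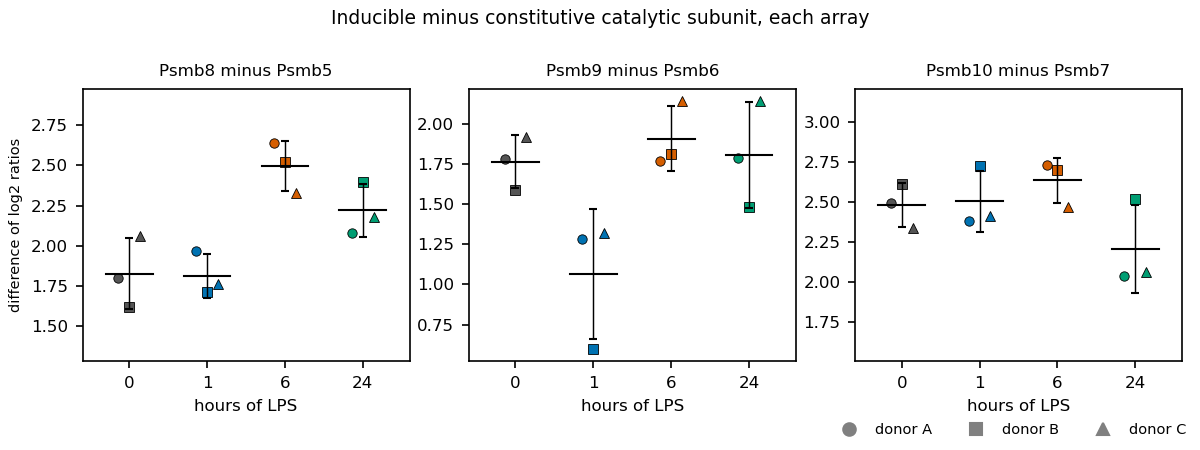
Difference of log2 ratios between each inducible catalytic subunit and the constitutive one it replaces, against hours of LPS, with 1 point per array, shape for donor, and bars for the mean and SD of 3 arrays. Psmb8 minus Psmb5 is at least 2.33 on all 6 h arrays and at most 2.06 before stimulation; the other pairs overlap the unstimulated range at 6 h.

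Over all 46 genes, the share called came near that of all genes tested at 6 and 24 h. At 1 h, 1 gene was called higher and 1 lower (4.35% of 46), against 7.45% of all genes tested (4.06% higher and 3.39% lower). Without the unstimulated array of donor C, 2 were called lower at 1 h. At 6 h, 9 were called higher and 9 lower (39.1%), against 39.6% of all genes (16.1% higher and 23.5% lower). At 24 h, 8 were called higher and 8 lower (34.8%), against 39.4% of all genes (18% higher and 21.5% lower). The values of the groups compared did not overlap for 13 of the 46 genes at 1 h, 27 at 6 h and 28 at 24 h (28.3%, 58.7% and 60.9%), beside 30.7%, 53.9% and 52.2% of all genes. The median change of the 46 genes was -0.12, -0.03 and -0.11 at 1, 6 and 24 h, beside 0.02, -0.04 and 0.02 for all genes. Without the unstimulated array of donor B or the 6 h array of donor A or B, 5 were called lower at 6 h, and without the 24 h array of donor A, 13 were called lower at 24 h. The F test called 23 of the 46 and 51.7% of all genes.

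The counts were also split by role. Of the 4 inducible and PA28 genes measured, 3 were called higher at 6 h and 3 at 24 h (75.0%), with a median change of 0.54 at both times. Over all genes 16.1% and 18% were called higher. Psmb8 was among the 3 at both times, and its calls ended without any 1 of most arrays, as given above. Of the other 42 genes, 6 were called higher and 9 lower at 6 h (35.7%, median -0.10), and 5 higher and 8 lower at 24 h (31.0%, median -0.12). All genes tested had 39.6% and 39.4% called. The difference between these lists was not tested. The 6 h and 24 h counts share the unstimulated arrays.

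**Figure D3:**
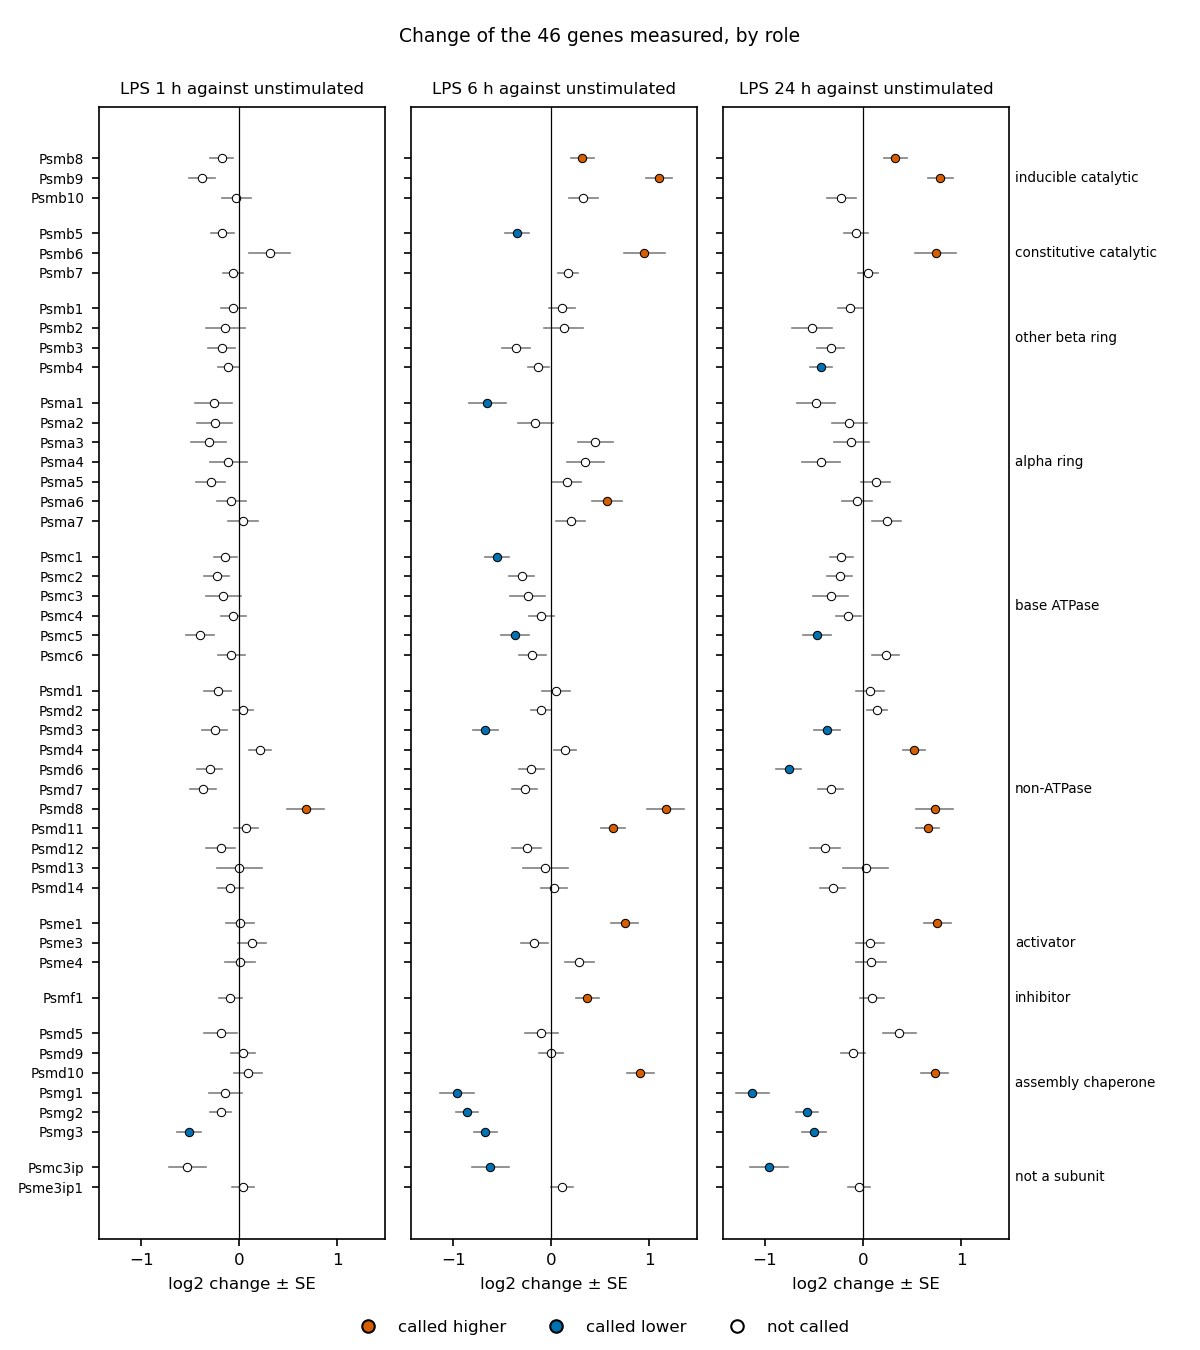
Log2 change against unstimulated cells, with its SE, for each of the 46 genes at 1, 6 and 24 h of LPS, grouped by role; orange marks genes called higher, blue called lower, white not called. At 6 and 24 h the chaperone genes Psmg1, Psmg2 and Psmg3 lie left of 0 and Psmd10 right of 0, while most alpha, beta and ATPase genes are not called.

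Among the 6 assembly chaperones, 1 was called higher and 3 lower at both 6 and 24 h (66.7%, beside 39.6% and 39.4% of all genes). Psmg1 had the largest decrease of the 46 genes at both times. Psmg1 (PAC1), which pairs with Psmg2 to build the alpha ring, had log2 ratios of -0.01, 0.25 and -0.01 unstimulated, -0.13, -0.12 and 0.06 at 1 h, -0.93, -1.17 and -0.55 at 6 h, and -0.76, -1.26 and -1.15 at 24 h. Psmg2 (PAC2) had -1.31, -1.32 and -1.39 unstimulated, -1.61, -1.53 and -1.46 at 1 h, -2.38, -2.18 and -2.03 at 6 h, and -1.92, -1.90 and -1.90 at 24 h. Both partners were lower on every 6 h and 24 h array than on any array of the earlier groups. Psmg1 was 1.94-fold lower at 6 h (log2 -0.96, SE 0.17, adjusted p = 7.6e-04) and 2.19-fold lower at 24 h (-1.13, SE 0.17, adjusted p = 2.4e-04). Psmg2 was 1.81-fold lower at 6 h (-0.86, SE 0.11, adjusted p = 7.7e-05) and 1.48-fold lower at 24 h (-0.57, SE 0.11, adjusted p = 0.0015), and its second probe was also called lower at both times (-0.71 and -0.69).

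Psmg3 (PAC3), which acts at the next step of alpha ring assembly, was lower from the first hour. Its log2 ratios were 0.61, 0.51 and 0.32 unstimulated, -0.06, 0.11 and -0.13 at 1 h, -0.29, -0.16 and -0.12 at 6 h, and 0.00, 0.04 and -0.09 at 24 h. No stimulated array reached the unstimulated range. Psmg3 fell by 0.51 at 1 h (SE 0.12, adjusted p = 0.019), by 0.67 at 6 h (SE 0.12, adjusted p = 6.1e-04) and by 0.50 at 24 h (SE 0.12, adjusted p = 0.0044). The 1 h call ended without the unstimulated array of donor A or B or the 1 h array of donor A (adjusted p up to 0.11).

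Psmd10 (gankyrin), a chaperone of the ATPase ring, moved the other way. Its log2 ratios were 0.35, 0.75 and 0.64 unstimulated, 0.58, 0.49 and 0.94 at 1 h, 1.44, 1.56 and 1.46 at 6 h, and 1.34, 1.33 and 1.25 at 24 h. All 6 h and 24 h arrays lay above all earlier ones. Psmd10 was 1.88-fold higher at 6 h (log2 0.91, SE 0.14, adjusted p = 2.6e-04) and 1.66-fold higher at 24 h (0.73, SE 0.14, adjusted p = 0.0012). Psmd5 and Psmd9, chaperones of the same ring, were not called against unstimulated cells, with changes of -0.10 and 0.00 at 6 h and of 0.37 and -0.10 at 24 h.

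Among the 11 non-ATPase subunits, 2 were called higher and 1 lower at 6 h (27.3%), and 3 higher and 2 lower at 24 h (45.5%). All genes tested had 39.6% and 39.4% called. Psmd8 (Rpn12), a lid subunit, had log2 ratios of 0.25, 0.30 and 0.87 unstimulated, 1.27, 1.27 and 0.91 at 1 h, 1.69, 1.76 and 1.49 at 6 h, and 1.25, 1.44 and 0.92 at 24 h. Every stimulated array lay above every unstimulated one, although the unstimulated array of donor C stood close to the lowest 1 h and 24 h arrays. Psmd8 was 2.26-fold higher at 6 h (log2 1.17, SE 0.19, adjusted p = 3.4e-04) and 1.66-fold higher at 24 h (0.73, SE 0.19, adjusted p = 0.0077). It was the gene called higher at 1 h (0.68, SE 0.19, adjusted p = 0.047). That call ended without the unstimulated, 1 h or 6 h array of donor A or B or the 24 h array of donor A (adjusted p up to 0.19).

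Psmd11 (Rpn6), which braces the lid against the core, had log2 ratios of -0.36, -0.39 and -0.38 unstimulated, -0.33, -0.12 and -0.47 at 1 h, 0.28, 0.36 and 0.12 at 6 h, and 0.16, 0.45 and 0.24 at 24 h. It lay below the reference on every unstimulated and 1 h array and above it on every later one. Psmd11 rose by 0.63 at 6 h (SE 0.12, adjusted p = 0.0015) and by 0.66 at 24 h (SE 0.12, adjusted p = 0.0011). Psmd4 (Rpn10), a ubiquitin receptor, had -0.14, -0.35 and -0.19 unstimulated and 0.29, 0.38 and 0.22 at 24 h, without overlap. It was 0.52 higher at 24 h (SE 0.11, adjusted p = 0.0019), after a change of 0.14 at 6 h that was not called (adjusted p = 0.35).

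Lid subunits also fell. Psmd3 (Rpn3) had log2 ratios of -0.02, -0.22 and -0.30 unstimulated, -0.44, -0.51 and -0.35 at 1 h, -0.93, -0.99 and -0.63 at 6 h, and -0.48, -0.51 and -0.65 at 24 h. It was lowest at 6 h and below the unstimulated range on every stimulated array. Psmd3 fell by 0.67 at 6 h (SE 0.13, adjusted p = 0.0011) and by 0.37 at 24 h (SE 0.13, adjusted p = 0.035), and the 24 h call ended without the unstimulated array of donor A or B or the 24 h array of donor B or C (adjusted p up to 0.14). Psmd6 (Rpn7) had 0.01, 0.18 and 0.01 unstimulated, -0.29, -0.31 and -0.10 at 1 h, -0.17, -0.20 and -0.03 at 6 h, and -0.46, -0.71 and -0.93 at 24 h. It stood apart at 24 h, where it was 1.7-fold lower than unstimulated (log2 -0.76, SE 0.13, adjusted p = 6.1e-04). Psmd14, the deubiquitinase of the lid, and its partner Psmd7 were not called against unstimulated cells (changes between -0.37 and 0.03), but another probe each of the lid genes Psmd14 (-0.48 at 24 h, adjusted p = 0.047) and Psmd12 (-0.57 at 6 h and -0.84 at 24 h, adjusted p = 0.0076 and 6.2e-04) were called lower where the probe used was not. The remaining Psmd12 probe was called at neither time (-0.04 and -0.40, adjusted p = 0.89 and 0.094).

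**Figure D4:**
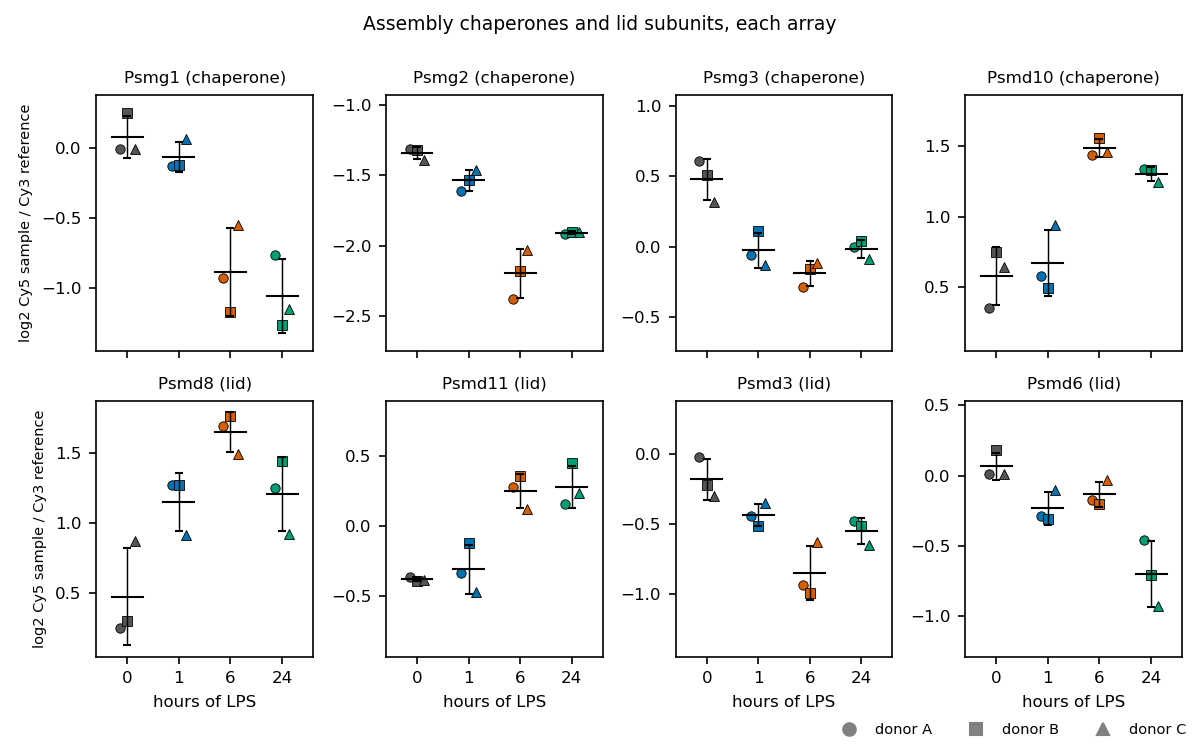
Log2 ratio of sample to reference against hours of LPS for 4 assembly chaperones (top) and 4 lid subunits (bottom), with 1 point per array, shape for donor, and bars for the mean and SD of 3 arrays; all panels span the same number of units. Psmg1, Psmg2, Psmg3 and Psmd3 are lower and Psmd10, Psmd8 and Psmd11 higher on all 6 h arrays than on all unstimulated arrays, and Psmd6 is lowest at 24 h.

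The 6 ATPases of the base had changes from -0.55 to -0.10 at 6 h, and 2 of them were called lower (33.3%, beside 23.5% of all genes). Psmc1 (Rpt2) fell by 0.55 at 6 h (SE 0.12, adjusted p = 0.0029) but was not called at 24 h (-0.22, adjusted p = 0.16). Psmc5 (Rpt6) was called lower at 6 h (-0.37, SE 0.14, adjusted p = 0.049), where its groups overlapped, and at 24 h (-0.47, SE 0.14, adjusted p = 0.017). Its 6 h call ended with donor as a block (adjusted p = 0.061) and without any 1 of the arrays other than the unstimulated and 6 h arrays of donor C (adjusted p up to 0.2). Its 24 h call ended without the unstimulated array of donor A or B or the 24 h array of donor C (adjusted p up to 0.082), and its other probe was called at neither time (-0.10 and -0.25).

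In the alpha ring, Psma6 rose by 0.57 at 6 h (SE 0.15, adjusted p = 0.0095) and Psma1 fell by 0.65 (SE 0.19, adjusted p = 0.015). The Psma1 call ended without the unstimulated array of donor B or the 6 h array of donor A or B (adjusted p up to 0.065). At 24 h limma called 0 of the 7 alpha genes, beside 39.4% of all genes, with 2 at an unadjusted p under 0.05 (Psma1 and Psma4, both lower). With donor as a block Psma1 was called lower at 24 h (adjusted p = 0.039). Of the 4 other beta subunits, Psmb4, which helps to join the beta rings, fell by 0.43 at 24 h (SE 0.11, adjusted p = 0.0089). Psmf1 (PI31), an inhibitor of the core in the test tube, rose by 0.37 at 6 h (SE 0.12, adjusted p = 0.024). That call ended without any 1 unstimulated array or the 6 h array of donor A or B (adjusted p up to 0.1). The nuclear activators Psme3 (PA28 gamma) and Psme4 (PA200) were not called at any time against unstimulated cells, with changes from -0.17 to 0.29.

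Outside the particle, Psmc3ip, a factor of meiotic recombination that shares only the start of its symbol, fell by 0.62 at 6 h (SE 0.19, adjusted p = 0.019) and by 0.96 at 24 h (SE 0.19, adjusted p = 0.0015). Its 6 h call ended without the unstimulated or 6 h array of donor A or B (adjusted p up to 0.07). Psme3ip1 was not called in any comparison. Donor as a block changed the call of 3 further genes against unstimulated cells: Psma3 at 6 h (0.45, adjusted p = 0.048), and Psmb2 (-0.52, adjusted p = 0.031) and Psmd12 (-0.39, adjusted p = 0.047) at 24 h.

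Between 1 h and 6 h of LPS, 10 of the 46 genes were called higher and 4 lower (30.4%), against 28.2% of all genes (12% higher and 16.2% lower). The 1 h and 6 h values did not overlap for 19 of the 46 (41.3%), beside 40.8% of all genes. The median change of the 46 was 0.09, beside -0.09 for all genes. Psmb9, Psme1 (0.74) and Psmb8 led the immunoproteasome genes, and Psmb6 rose by 0.64 (SE 0.21, adjusted p = 0.038). Psmd10 rose by 0.82 (SE 0.14, adjusted p = 9.0e-04) and Psmd11 by 0.56 (adjusted p = 0.005). Psmg1 fell by 0.82 (SE 0.17, adjusted p = 0.0034), Psmg2 by 0.66 (SE 0.11, adjusted p = 7.7e-04) and Psmd3 by 0.42 (SE 0.13, adjusted p = 0.026). Psmb10 was called higher with donor as a block (0.36, adjusted p = 0.034) but not otherwise (adjusted p = 0.087).

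Psma3, Psma5 and Psma6 of the alpha ring were among the genes called higher over this interval. Psma3 had log2 ratios of -0.07, -0.57 and 0.24 at 1 h and 0.59, 0.50 and 0.80 at 6 h, and Psma6 had 0.39, 0.08 and 0.66 at 1 h and 0.97, 1.03 and 1.08 at 6 h. Neither overlapped between the times, and the 1 h array of donor B was the lowest for both. Psma3 rose by 0.77 (SE 0.18, adjusted p = 0.0071) and Psma6 by 0.65 (SE 0.15, adjusted p = 0.0064). With slide as a block none of the 3 alpha ring calls was kept (adjusted p = 0.055 for Psma3, 0.058 for Psma6 and 0.22 for Psma5), and within slides the changes of Psma3 and Psma6 were 0.31 and 0.34. The calls that ended without 1 array were those of Psmb6 (without any 1 unstimulated array, the 1 h array of donor A or C or the 6 h array of donor A or B, adjusted p up to 0.13), Psma5, Psmc1, Psmd3 and Psmf1. Those of Psmc1 and Psmd3 ended without the 1 h array of donor A or C or the 6 h array of donor A or B. That of Psma5 ended without the 1 h array of donor A or B or any 6 h array, and that of Psmf1 without the 1 h array of donor C or the 6 h array of donor B. Their highest adjusted p without 1 array was 0.12, 0.1, 0.11 and 0.055 for Psma5, Psmc1, Psmd3 and Psmf1. Without any 1 of the 4 arrays named for Psmc1, 2 genes were called lower.

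Between 6 h and 24 h, 2 genes were called higher and 6 lower (17.4%), against 18.4% of all genes (9.64% higher and 8.76% lower). The 6 h and 24 h values did not overlap for 23 of the 46 (50%), beside 35% of all genes. Besides Psmb10, the genes that fell were Psma3, Psma4, Psma6, Psmb2 and Psmd6. Psma4 had log2 ratios of -0.05, -0.17 and 0.22 at 6 h and -0.57, -0.85 and -0.92 at 24 h, and Psmb2 had 0.39, 0.33 and 0.72 at 6 h and 0.09, -0.47 and -0.14 at 24 h. Neither overlapped between the times. Psma4 fell by 0.78 (SE 0.19, adjusted p = 0.016), as did its second probe, Psmb2 by 0.65 (SE 0.20, adjusted p = 0.037) and Psma6 by 0.63 (SE 0.15, adjusted p = 0.013). Psmd6 fell by 0.56 (SE 0.13, adjusted p = 0.011), and its call was the 1 of the 8 that no array left out ended. Psmd4 rose by 0.39 (SE 0.11, adjusted p = 0.024) and the ATPase Psmc6 by 0.42 (SE 0.14, adjusted p = 0.047).

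The other 7 calls of this interval each ended without some array. For Psma3, Psmb2 and Psmc6 these included arrays outside the 2 groups compared. No change altered its sign without 1 array, and those of Psma3 and Psmc6 ran from -0.67 to -0.49 and from 0.32 to 0.49. Those of Psma6 and Psma4 ended without the 24 h array of donor C, and that of Psma4 also without the 6 h array of donor C. Both calls of higher genes ended without the 6 h or 24 h array of donor A or B. That of Psmb2 ended without the unstimulated array of donor C, any 6 h array or the 24 h array of donor B or C. That of Psma3 ended without any 1 array other than the 1 h array of donor B or C or the 24 h array of donor A, and that of Psmc6 without any 1 array other than the 1 h array of donor B or C or the 6 h array of donor C. The highest adjusted p without 1 array was 0.057 for Psma6, 0.061 for Psma4, 0.093 for Psmd4, 0.12 for Psmb2, 0.13 for Psma3 and 0.18 for Psmc6. Without the 24 h array of donor C 1 gene was called lower, and without any 1 array of 6 h 3 were. Without the 6 h array of donor C 5 were called higher, without the 1 h array of donor B 3, and without any 1 unstimulated array, the 1 h array of donor A or the 24 h array of donor C 1. Donor as a block added the chaperone Psmd5 (0.47, adjusted p = 0.04).

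Slides held the groups unevenly, and this bears on every comparison with unstimulated cells. All 3 unstimulated arrays shared a slide with 1 array of 1 h, and none of the slides carried both an unstimulated and a 6 h or 24 h array. Within-slide values could be had only by chaining through the 1 h arrays. They gave 1.00 at 6 h and 1.14 at 24 h for Psmb9, 0.86 and 0.91 for Psme1, 1.01 and 0.73 for Psmb6, 1.62 and 0.98 for Psmd8, 0.83 and 0.62 for Psmd11, -1.32 and -1.35 for Psmg1, and -1.09 and -0.63 for Psmg2. These have the sign of the values above. At 24 h, however, the chain holds only the array of donor B, since no other 24 h array shares a slide with a 1 h array. That array was the highest at 24 h for Psmb9, Psme1, Psmb6, Psmd8 and Psmd11. It was the lowest for Psmg1 but not for Psmg2. The chained 24 h values are thus not replicated. The chained 6 h values leave out the 6 h array of donor C, whose slide has no 1 h array.

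With slide as a block, 7 of the 18 genes called at 6 h and 8 of the 16 called at 24 h were still called. At 6 h these were Psmb9 (1.17, adjusted p = 0.011), Psme1 (0.88, adjusted p = 0.02), Psmb6 (0.99, adjusted p = 0.0081), Psmd8 (1.55, adjusted p = 0.0099), Psmd11 (0.75, adjusted p = 0.029), Psmg1 (-1.21, adjusted p = 0.014) and Psmg2 (-0.99, adjusted p = 0.011). At 24 h they were Psmb9, Psme1, Psmb6, Psmd11, Psmg1, Psmg2, Psmd6 (-0.89, adjusted p = 0.049) and Psmc3ip. Among the genes no longer called were Psmb8 (adjusted p = 0.2 at 6 h), Psmd10 (0.69 at 6 h, adjusted p = 0.089), Psmg3 (-0.65 at 6 h, adjusted p = 0.063) and Psmd3 (-0.71 at 6 h, adjusted p = 0.074). Both calls at 1 h ended with that block. From 1 h to 6 h, where a slide holds both groups, 9 of 14 calls were kept and 3 were added, those of Psmb10 (0.44, adjusted p = 0.04), Psmd8 (0.75, adjusted p = 0.028) and, lower, Psma1 (-0.61, adjusted p = 0.045). From 6 h to 24 h 1 of 8 was kept, that of Psmb10.

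The normalization within arrays also set which direction was called. With median centring in place of loess, the median change of all genes was -0.12, 0.05 and -0.11 at 1, 6 and 24 h, and 67.3% of the genes called at 6 h and 35.6% at 24 h were higher, beside 40.6% and 45.6% with loess. At 6 h, 6 of the 46 genes were then called higher, namely Psmb9 (1.31), Psme1 (0.95), Psmb6 (1.17), Psmd8 (1.39), Psmd10 (1.06) and Psmd11 (0.82), and 0 lower, with 3 at an unadjusted p under 0.05. At 24 h the same setting called 5 lower, namely Psmg1 (-1.42), Psmd6 (-1.07), Psmg2 (-0.85), Psmg3 (-0.76) and Psmc3ip, and 0 higher, with 5 at an unadjusted p under 0.05. Psmb9 was then at 0.56 (adjusted p = 0.13), Psme1 at 0.47 (adjusted p = 0.071) and Psmb8 at 0.05 (adjusted p = 0.9) at 24 h. No gene called with loess changed sign under it. From 6 h to 24 h median centring moved the median of all genes to -0.18, and from 1 h to 6 h to 0.13; 10.4% and 83.0% of calls were then higher, beside 52.4% and 42.6% with loess. At 1 h it made 79.6% of calls higher and the slide block 75.6%, beside 54.5%.

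**Figure D5:**
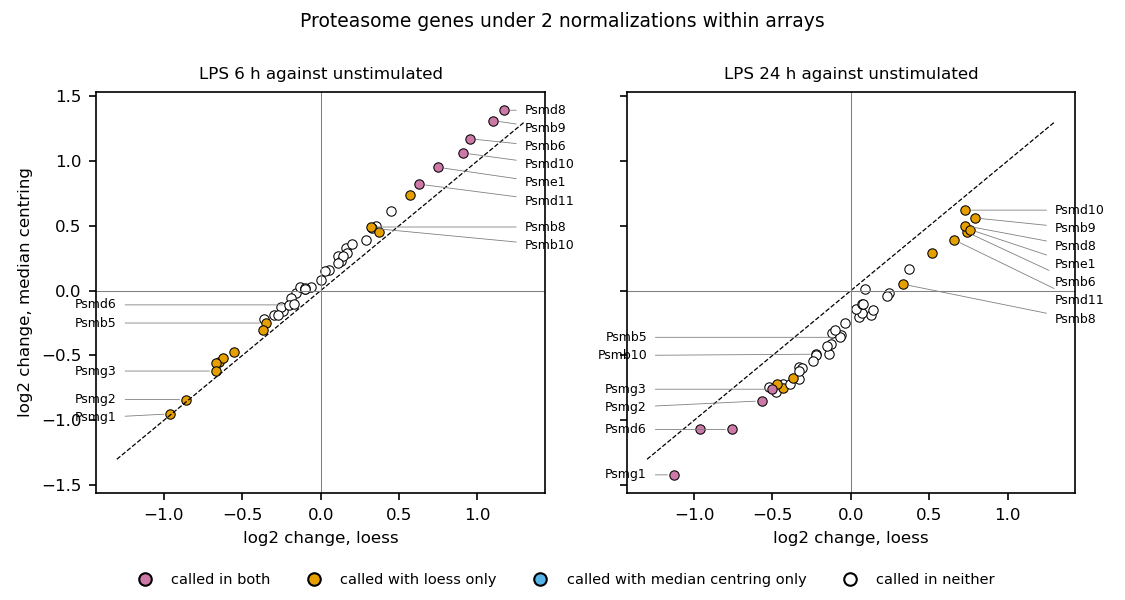
Log2 change of each of the 46 genes with loess (horizontal axis) and with median centring (vertical axis) at 6 h and 24 h against unstimulated cells; the dashed line marks equal values and colours mark which setting called the gene. Most points lie above the line at 6 h and below it at 24 h: the median of the 46 genes is 0.05 and -0.35 with median centring, beside -0.03 and -0.11 with loess.

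The rest of the pathway was read from a list of 60 genes, 55 of them tested. At 6 h, 18 were called higher and 6 lower (43.6%, median change 0.19), and at 24 h 19 higher and 8 lower (49.1%, median 0.13), beside 39.6% and 39.4% of all genes. At 1 h 5 were called higher (9.09%, beside 7.45% of all genes called either way) and 0 lower by limma, with 1 lower at an unadjusted p under 0.05. Of 8 transcription factors known to act on the inducible subunits, 7 were called higher at 6 h (median 1.45), beside 16.1% of all genes. Among these were Stat2 (2.81, SE 0.21, adjusted p = 8.5e-07), which carries the interferon signal, and Irf1 (2.22, SE 0.30, adjusted p = 1.1e-04), which binds the promoters of inducible subunits. The other, Irf2, was lower at 24 h (-0.79, SE 0.14, adjusted p = 8.7e-04).

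Steps that follow the proteasome in antigen presentation had 6 of 10 genes called higher at 6 h (median 1.25), beside 16.1% of all genes. Tap1, the peptide transporter subunit that shares its promoter region with Psmb9, rose by 2.17 at 6 h (SE 0.25, adjusted p = 3.1e-05) and 1.67 at 24 h (SE 0.25, adjusted p = 2.3e-04). Tapbp (tapasin, 1.76), Tapbpl (1.93), Tap2 (1.19), B2m (1.32) and the class I heavy chain H2-D1 (1.43) were also higher at 6 h. The chaperones Canx and Calr gave -0.37 and -0.32 at 6 h, the first called lower (adjusted p = 0.018, lost without the unstimulated array of donor C or the 6 h array of donor A).

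Of the 19 assembly and associated factors, 1 was called lower at 6 h (5.26%, beside 39.6% of all genes), and 2 higher and 2 lower at 24 h (21.1%, beside 39.4%). Usp14, a deubiquitinase bound to the regulatory particle, fell by 0.86 at 24 h (SE 0.15, adjusted p = 8.6e-04), and Uchl5, another one, by 0.89 (SE 0.24, adjusted p = 0.011). Zfand2a, a stress-induced partner of the particle, rose by 0.67 (SE 0.14, adjusted p = 0.0018). Pomp, the chaperone that matures the core, was not called (-0.55 at 6 h, SE 0.26, adjusted p = 0.12). Nfe2l1, the activator that restores proteasome genes when proteasomes are inhibited, rose by 1.16 at 6 h (SE 0.22, adjusted p = 0.0013), and Nfe2l2 by 1.08 at 1 h (SE 0.19, adjusted p = 0.0037).

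Peptidases that trim or destroy proteasome products split. Lnpep (1.22, SE 0.17, adjusted p = 1.3e-04) and Lap3 (0.80, SE 0.18, adjusted p = 0.0037) rose at 6 h, and both fell from 6 h to 24 h (by 0.95 and 1.14, adjusted p = 0.0026 and 0.0012). Thop1, which degrades free peptides, fell by 0.52 at 6 h (adjusted p = 0.0089). Of the pathway genes named here, those with slide as a block no longer called were Canx, Usp14, Uchl5, Zfand2a, Lap3 at 6 h, Thop1 and Nfe2l2.

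The cultures carried the labelled cell type's markers, with 6 or 7 of 8 dendritic cell markers above background on all arrays of each group, and also differed in markers of other cells. Of 8 neutrophil markers the 6 tested were all called lower at 6 h and at 24 h, beside 23.5% and 21.5% of all genes. At 1 h 3 of these 6 were already called lower, beside 3.39% of all genes, and the median change of the 6 was -0.94. The summed Cy5 signal of this list ran from 40200 to 66800 units per array unstimulated. It ran from 9240 to 21600 at 1 h, below every unstimulated array, from 5610 to 9650 at 6 h and from 1920 to 13700 at 24 h. Elane was above background in no group, and Camp in no group after LPS. The summed signal of 5 macrophage and monocyte markers ran from 6220 to 9870 units unstimulated and from 17900 to 21300 at 1 h. It ran from 16400 to 21700 at 6 h and from 29000 to 46300 at 24 h. Within that list Cd14 was 2.84 higher at 6 h and 4.54 at 24 h (log2), whereas at 24 h Mertk was called lower (-0.68, adjusted p = 0.015), C1qb was at -0.39, C1qa was above background on no array and the median change of the 5 was -0.15. The summed signal of 8 dendritic cell markers ran from 69100 to 93700 units per array unstimulated. It ran from 85100 to 113000 at 1 h and from 89700 to 134000 at 6 h, both overlapping that range, and from 100000 to 122000 at 24 h. Of the 7 tested, 2 were called higher at 6 h and 1 at 24 h, beside 16.1% and 18% of all genes. Their changes ran from -0.13 to 0.78 at 6 h (median 0.38) and from -0.32 to 1.25 at 24 h (median 0.21). Cd209a of the dendritic cell list was above background in no group, nor were Cd3d (T cells), Pax5 (B cells) and Ncr1 and Prf1 (NK cells). However, 2 of 4 T cell and 2 of 4 B cell markers were above background on all 3 arrays of each group. Of the 2 T cell markers tested, 1 was called higher at 6 h and 1 at 24 h (highest changes 1.80 and 1.38), beside 16.1% and 18% of all genes. The 2 B cell markers tested were not called, with changes from 0.11 to 0.24 at 6 h and 0.14 to 0.31 at 24 h. The part of these shifts in the proteasome values was not tested. In such bulk samples fewer cells of a type and less RNA per cell cannot be told apart.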

How the data were processed

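RNA was measured on Agilent 2-colour arrays, 1 per sample. Per the file headers, the authors' scanner software (Feature Extraction 10.7.3.1, protocol GE2_107_Sep09) gave median spot and background intensities, with quality codes of other kinds. Per the labels the Cy5 channel holds the sample and the Cy3 channel the reference, so the ratio runs from sample to reference. The authors' deposited value table, taken as log2 ratios, correlated at 0.999 or more with the values computed here on every array, so scale and direction match, while the sources used here do not give its exact steps.

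Intensities as deposited were corrected by normexp (offset 50) after local backgrounds called outliers had been replaced by the array's median background. Loess followed within arrays (span 0.3), with control and outlier spots at weight 0. No spot was saturated, 92 to 161 spots per array were outliers, and 48.1% to 57.6% of 41174 probes were well above background. Probes well above background in Cy5 on all 3 arrays of a group were kept, and a gene was read from its probe with the highest mean intensity. Gene names are those of the array's annotation matched to RefSeq. Of the 46 genes 14 had more than 1 probe, and none was called both ways by its probes.

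Group means of all 12 arrays were fitted together (limma 3.58.1 in R 4.3.3, moderated test, 8 residual degrees of freedom) and p-values were adjusted over 11095 genes by Benjamini-Hochberg; "called" means an adjusted p under 0.05. Values for further probes of a gene come from the same model fitted to all 21750 probes kept, with p-values adjusted over these probes. The subunit pairs were compared by two-sided exact permutation tests. Both procedures were tested on simulated data. The labels call the arrays of each group biological replicates. They do not say whether a donor letter is the same animal in each group, nor that arrays of a group come from separate cultures. The p-values therefore measure the spread between these samples. Deviations from group means had a median correlation of 0.11 (-0.21 to 0.58) over 18 pairs with the same letter and -0.01 (-0.53 to 0.41) over 36 with different letters; the labels name the letters as donors, so results that change with donor as a block carry that value.

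Values per array are given for Psmb5, Psmb6, Psmb8, Psmb9, Psmb10 and Psme1, and a range for Psmb7. In each comparison they are also given for up to 3 other genes called higher and 3 called lower with the largest change. From 6 h to 24 h they are left out for Psmc6, for Psma6 at 24 h and for Psmd4 at 6 h. Other genes are named by role, having been chosen with their values seen. The genes, the lists and the tests were chosen with earlier results of these data known. Some genes of the pathway and marker lists are not reported here. Alternatives were another background correction, scanner-processed signals, median centring, Cy5 alone, the authors' table, other probe filters, the mean of all probes of a gene, slide or donor as a block, 2 groups only, and leaving out each array.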

Additional observations from a re-analysis of the deposited data

How the results depend on the processing

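Over 60 values for proteasome genes and all alternatives, 1222 kept their side of the threshold, 152 lost a call and 6 gained one. No called value among these changed sign, while some that were not called did, such as Psmb7 at 24 h (0.05, and -0.05 with slide as a block) and Psme1 at 1 h (0.01, and -0.24 with median centring). The authors' table, a stricter probe filter and the mean of all probes of a gene kept all 60, but these settings could alter little. That table correlated at 0.999 or more with the values used, all 46 genes already met the stricter filter, and 14 had more than 1 probe. With local backgrounds as deposited (normexp), limma called 0 genes higher and 0 lower at 1 h (1 and 5 at an unadjusted p under 0.05), 5 higher at 6 h, 5 lower at 24 h, 3 higher and 0 lower from 1 h to 6 h (3 lower unadjusted) and 0 higher and 2 lower from 6 h to 24 h (6 higher unadjusted), and the F test called 13. Median centring gave 0 higher and 0 lower at 1 h (0 and 3 unadjusted), 0 lower at 6 h (3), 0 higher (5) and 5 lower at 24 h, 0 lower from 1 h to 6 h (0), 0 higher (0) and 3 lower from 6 h to 24 h, and 10 by the F test. Slide as a block gave 0 higher and 0 lower at 1 h (1 and 3), 5 higher and 2 lower at 6 h, 4 higher and 4 lower at 24 h, 0 higher (3) and 1 lower from 6 h to 24 h, and 11 by the F test. Values within slides, chained through the 1 h arrays, gave 0.97 for Psmb8 minus Psmb5 at 6 h. A fit of 2 groups gave 0 higher and 0 lower at 1 h (1 and 6), 2 lower from 1 h to 6 h and 0 higher from 6 h to 24 h (4). Scanner-processed signals, Cy5 alone and no probe filter each gave 0 higher at 1 h (1, 1 and 2) and 1 higher from 6 h to 24 h. The cause of these shifts was not tested.

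For the pathway list, normexp gave 1 higher at 1 h, 1 lower at 6 h and 3 lower at 24 h; median centring gave 0 higher at 1 h (5 unadjusted), 0 lower at 6 h (0), and 12 higher and 2 lower at 24 h; slide as a block gave 0 higher at 1 h (10), 0 lower at 6 h (4) and 2 lower at 24 h. Scanner-processed signals and Cy5 alone gave 3 higher at 1 h, Cy5 alone 3 lower at 6 h, and the fit of 2 groups 5 lower at 24 h.

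Leaving out 1 array gave 0 to 1 genes higher and 0 to 2 lower at 1 h, 7 to 10 and 5 to 10 at 6 h, 6 to 9 and 6 to 13 at 24 h, 7 to 10 and 2 to 5 from 1 h to 6 h, 0 to 5 and 1 to 6 from 6 h to 24 h, and 16 to 25 by the F test. Pathway counts ran from 1 to 6 and 0 to 2 at 1 h, 17 to 20 and 2 to 7 at 6 h, and 17 to 21 and 4 to 8 at 24 h. The pair changes at 6 h ran from 0.57 to 0.79, 0.03 to 0.23 and 0.08 to 0.24. Of the genes called, 12 of 18 at 6 h, 12 of 16 at 24 h, 9 of 14 from 1 h to 6 h and 1 of 8 from 6 h to 24 h kept the call without any 1 array.

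The replicate block (donor) gave 10 higher and 8 lower at 6 h, 8 higher and 11 lower at 24 h and 24 by the F test, and it changed no call of a proteasome gene other than those given with their values above. Among pathway genes it ended the 1 h call of H2-D1 (adjusted p = 0.051) and the 6 h call of Ngly1 (0.053), and added Irf1 at 1 h (0.024) and Uchl5 at 6 h (0.042). From 6 h to 24 h it ended the call of H2-D1 and added calls that included Erap1, Irf1, Nfyb and Tap2. How far signal near background limits the changes that can be called was not tested. Every proteasome gene kept was above background on all 12 arrays.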
